A study of Mus musculus with 9 samples.

Results

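Loss of Pcgf6 in the adult mouse gut was examined here in the 5 crypt libraries of the Villin CreERT2 model, out of 9 libraries in all. They were chosen by their titles, 3 labelled Pcgf6 WT (WT 1 to WT 3) and 2 labelled Pcgf6 KO (KO 1 and KO 2), and KO was compared with WT in these 5 alone. The other 4 libraries come from a separate AhCre model, with 2 WT and 2 KO libraries, and their values are given beside some results, with a test of the difference where one is named. The study asked what loss of PCGF6 does in adult intestinal epithelial cells. Every Villin library is RNA from crypts of the small intestine of C57BL/6 mice given tamoxifen (TAM), and the design text gives male mice of 8 to 12 weeks. The WT libraries are labelled Villin CreERT2 as well, so tamoxifen and the Cre label are shared by both genotypes. In this model tamoxifen switches on a Cre recombinase driven by the Villin promoter, which acts in intestinal epithelium, so other cells in a crypt preparation keep Pcgf6. The labels disagree on time: titles and treatment fields give day 15 after tamoxifen, while a second description line and the design text give 7. Another description line of each library names BNF, the AhCre inducer, in place of tamoxifen, and that of KO 2 leaves out Villin. Libraries were made with Smart-seq2 from 2 ng of RNA. The labels do not say whether replicates of a genotype came from separate animals, and if they did not, the p-values below reflect technical spread among the 5 libraries. The time of day of collection is not given in the sources used here.

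PCGF6 is the Polycomb group RING finger subunit that defines the variant Polycomb repressive complex PRC1.6. That complex is brought to DNA by MGA with MAX and by E2F6 with DP partners, and it is best known for keeping germline genes silent. Crypts hold stem and dividing cells, secretory cells (Paneth, goblet, enteroendocrine and tuft cells) and young absorptive enterocytes. Tuft cells are rare chemosensory cells that release IL-25 and lipid mediators. Through the type 2 immune circuit, interleukin 13 in turn drives more tuft and goblet cells. In the circadian clock, BMAL1 (encoded by Arntl) and CLOCK switch on Per genes, Ciart and the PAR bZIP factors Dbp, Tef and Hlf through E-boxes, and REV-ERB proteins repress Arntl.

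Total counts ran from 6455098 to 8339149 per library. WT 2 and KO 1 stood apart. WT 2 had the most genes with a count, 29750, against 22058 to 23812 in the other 4 libraries, and the highest TMM scaling factor, 1.36, while KO 1 had the lowest, 0.771. Pearson correlations of log2 CPM (counts per 1000000, by scaled library size) across tested genes were 0.909 to 0.933 between WT libraries and 0.921 between KO 1 and KO 2. They were 0.873 to 0.877 between KO 1 and the WT libraries, and between KO 2 and WT 1 to WT 3 they were 0.902, 0.889 and 0.936, so that KO 2 was close to WT 3 and less so to the other WT libraries. Genes are not independent replicates, and these correlations are descriptions. Epithelial markers fitted the tissue label: Epcam lay at 1373 to 3410 CPM and Vil1 at 824 to 2107 CPM in all 5 libraries. Markers of other cells varied among libraries of 1 genotype. The summed CPM of the 32 listed lymphocyte genes, tested or not, was 796, 148 and 3007 in WT 1 to WT 3, and 1108 and 3073 in KO 1 and KO 2. The summed CPM of the 23 Paneth cell genes present in the data, tested or not, was 10401, 2580 and 20635 in WT 1 to WT 3, 4740 in KO 1 and 12809 in KO 2. In bulk RNA, fewer cells of a type and less RNA per cell cannot be told apart.

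Pcgf6 itself (chr19:47033617-47050906 in GRCm38) was at 8.71, 10.5 and 7.45 CPM in WT 1 to WT 3, and at 2.73 and 2.19 CPM in KO 1 and KO 2. Both KO libraries were below all 3 WT libraries, and the residual level was similar in the 2. The log2 fold change was -1.85 (SE 0.61), which did not pass the threshold over all genes tested (adjusted p = 0.136 by edgeR's quasi-likelihood test with the Benjamini-Hochberg correction). These values rest on 49 to 99 counts per WT library and on 15 and 16 counts in KO 1 and KO 2. In the AhCre libraries the log2 fold change was -0.88 (adjusted p = 0.0357 in the same test), and the difference of -1.10 between the models did not pass (adjusted p = 0.356). Whether the counted reads cover the deleted part of the gene was not tested.

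After a filter on low counts, 13673 of 55341 genes were tested, and 224 were called higher (1.64% of genes tested) and 35 lower (0.256%) in KO at an adjusted p under 0.05 (edgeR quasi-likelihood test, Benjamini-Hochberg). At an unadjusted p under 0.05, 1354 genes were higher and 939 lower, the background for such counts below. Among the called genes, rises were led by the lipase gene Pla2g4c and by tuft cell genes, with sugar carriers and clock genes also among them. KO and WT libraries did not overlap in 258 of these 259 genes (1.89% of genes tested), and they also did not overlap in 35.2% of all genes tested. The calls rest on particular WT libraries. Without WT 1, 11 genes were called higher (0.0837%) and 1 lower (0.00761%). Without WT 2, 1 gene was called higher (0.0077%) and 0 lower by edgeR, with 960 higher and 786 lower at an unadjusted p under 0.05, and the 1 gene was Pla2g4c. Without WT 3, 240 were higher (1.82%) and 65 lower (0.494%). With KO 2 as the lone KO library 74 were higher (0.495%) and 17 lower (0.114%), and with KO 1 as the lone one 682 were higher (4.55%) and 315 lower (2.1%). In each of these 5 fits 223 or 224 of the 224 genes had a positive log2 fold change. That sign was largely fixed by choosing the genes in these same libraries, so it is no separate check. In the last 2 fits the lone KO library is assumed to vary like the WT libraries.

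**Figure D1:**
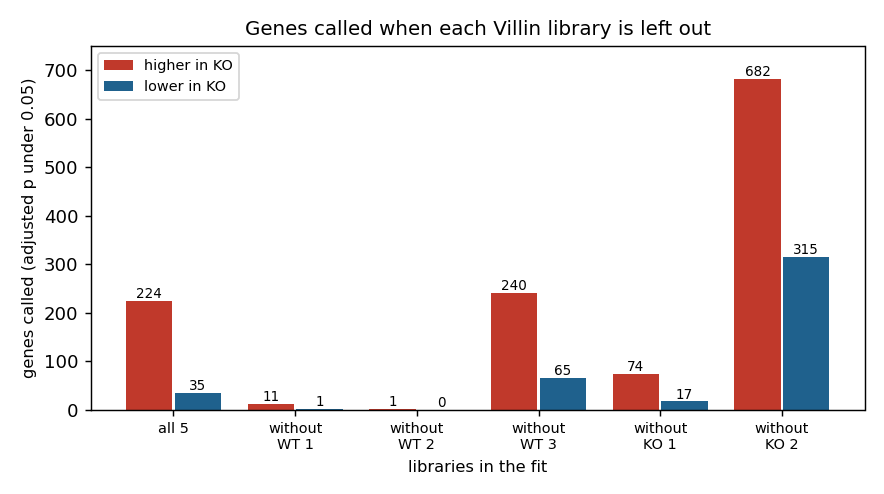
Genes called higher (red bars) or lower (blue bars) in KO at an adjusted p under 0.05 (y axis, number of genes), with all 5 Villin libraries and with each left out in turn (x axis). The count of higher genes falls from 224 to 11 without WT 1 and to 1 without WT 2, and is 682 with KO 1 as the lone KO library.

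What both KO libraries share was read from each library separately. A gene was placed in a class when a KO library lay at least 1 log2 unit beyond all 3 WT libraries, on log2 CPM with a prior count of 2. These classes carry no test, and the gene nearest the threshold inside a class lay 1.01 beyond, the nearest outside 1.00. Both KO libraries were beyond the WT range upward for 280 genes (2.05% of genes tested) and downward for 344 (2.52%). With 1 WT library left out these counts were 429 to 533 and 443 to 687, and as the WT range cannot widen they could not shrink. KO 1 alone was beyond it, with KO 2 inside the WT range, upward for 177 genes (1.29%) and downward for 439 (3.21%). KO 2 alone was beyond it upward for 57 genes (0.417%) and downward for 111 (0.812%). The 57 became 35 without WT 2 and 147 without WT 3. The 2 KO libraries were beyond the range in opposite directions for 4 genes each way (0.0293% each way). Of the 224 genes called higher, 169 were higher in both KO libraries by this measure, and of the 35 called lower, 34 were lower in both. None of the called genes was in a class of 1 KO library only. Calls and classes come from the same 5 libraries, so this overlap was largely fixed in advance and is no separate check. KO 1 and KO 2 differed in size as well: of the 280 genes higher in both, 239 were further from the WT mean in KO 1, with median distances of 2.57 in KO 1 and 1.88 in KO 2. Of the 344 genes lower in both, 185 were further in KO 1, with medians of -1.99 and -1.92.

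**Figure D2:**
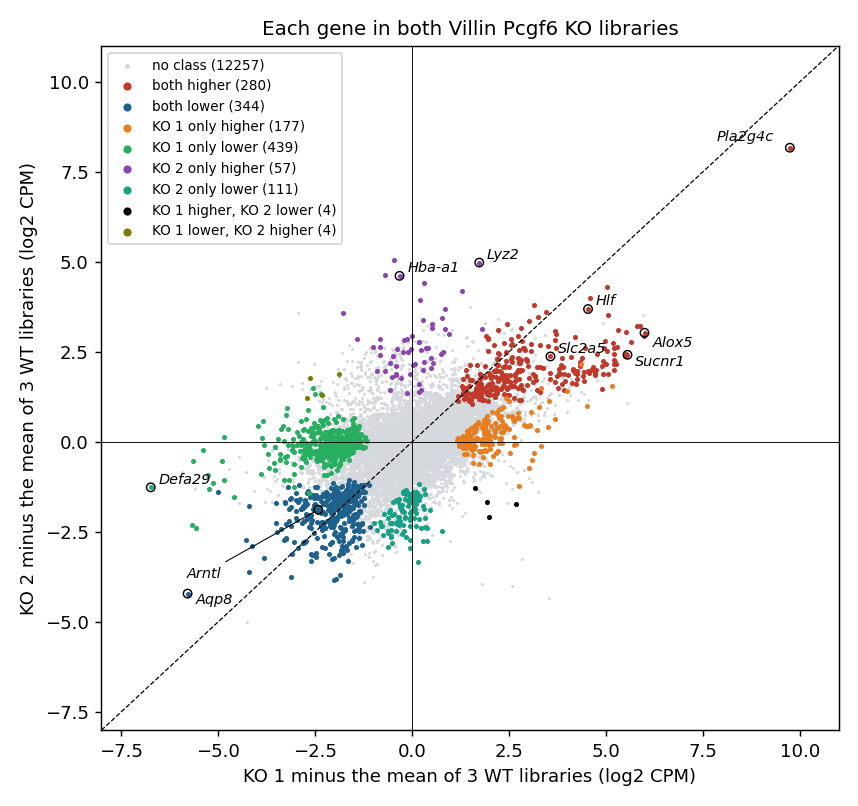
Each point is 1 of 13673 tested genes, at its log2 CPM in KO 1 (x axis) and KO 2 (y axis) minus the mean of the 3 WT libraries, coloured by class, with the dashed line marking equal distance. Genes higher in both KO libraries (280) lie mostly below the line, nearer the KO 1 axis, and the classes of 1 KO library spread along the axes.

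Pla2g4c, which encodes a phospholipase A2 of the cytosolic group IV family, rose most (chr7:13324655-13360672). It was at 2.03, 0.845 and 1.37 CPM in WT 1 to WT 3 and at 1394 and 469 CPM in KO 1 and KO 2. Each KO library was far above every WT library. The log2 fold change was 9.37 (SE 0.69, edgeR adjusted p = 2.78e-06), and of 53 called genes named by the rule it was the one that kept its call in all 12 alternatives, without each library in turn included. With KO 1 or KO 2 as the lone KO library the log2 fold changes were 9.96 and 8.40.

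Most tested tuft cell genes rose, and their levels were higher in KO 1 than in KO 2. Of 51 listed 48 were tested, 34 were called higher and 0 lower, beside 1.64% and 0.256% of all genes tested. The median log2 fold change of the 48 was 3.43, beside 0.01 over all genes tested. KO 1 was above every WT library for all 48 and KO 2 for 43 of them, with KO 2 below every WT library for 1, beside 34.1% and 29.9% of all genes tested, and 27 were in the class higher in both. The median distance from the WT mean was 4.30 in KO 1 and 1.88 in KO 2. Summed over the list, CPM was 1064, 839 and 1154 in WT 1 to WT 3, 11736 in KO 1 and 2766 in KO 2. The number called was 2 without WT 1, 0 without WT 2, 11 without KO 1 and 44 without KO 2, and the medians in these fits stayed between 1.76 and 4.28.

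Pou2f3, the transcription factor that tuft cells need to form, was at 1.6, 2.11 and 0.760 CPM in WT 1 to WT 3 and at 49.9 and 6.97 CPM in KO 1 and KO 2, a rise of 4.21 on the log2 scale. KO 2 was above the WT libraries by far less than KO 1. Gfi1b, another transcription factor of tuft cells, was at 0.725, 0.423 and 0.152 CPM in WT and at 30.1 and 3.28 CPM in KO 1 and KO 2 (5.20). Trpm5, the taste-type cation channel of these cells, stood at 6.38, 9.93 and 10.3 CPM in WT against 343 and 39.9 CPM in KO 1 and KO 2 (4.42). Sucnr1, the succinate receptor through which tuft cells sense microbes, stood at 1.31, 0.528 and 1.06 CPM in WT against 56.3 and 6.15 CPM (5.02). Neither gene overlapped between the genotypes. Alox5, the 5-lipoxygenase of leukotriene synthesis, was at 2.76, 2.43 and 5.17 CPM in WT and at 227 and 28.9 CPM in KO (5.22, SE 0.70, edgeR adjusted p = 0.0029). Its partner Alox5ap rose by 4.46 on the log2 scale, with 13.3% of its exon length overlapping another gene. Avil, encoding the actin binding protein advillin, was at 5.37, 6.55 and 9.88 CPM in WT and at 411 and 68.2 CPM in KO (5.04, SE 0.64, edgeR adjusted p = 0.0017), with 4.9% of its exon length shared with Tsfm. The widely used marker Dclk1 was at 15.1, 12.9 and 10.03 CPM in WT, 249 CPM in KO 1 and 28.4 CPM in KO 2. It rose by 3.45 (SE 0.64, edgeR adjusted p = 0.00956) on the log2 scale. With KO 2 as the lone KO library it was 1.19 higher and did not pass (edgeR adjusted p = 0.436), against 4.30 with KO 1 alone. Il25, the tuft cell cytokine, had 0, 1 and 0 counts in WT and 21 and 10 counts in KO 1 and KO 2, too few to enter the test. Other rises among the largest were Vmn2r26 (5.76), Siglecf (4.92), Clec4a1 (4.80), Itprid1 (4.76), the immunoglobulin segment Ighv6-3 (4.75) and the potassium channel gene Kcnj16 (4.71).

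For 3 tuft cell genes KO 1 stood alone. Kctd12, Hmx2 and the phospholipase C gene Plcb2 were more than 1 log2 unit above the WT range in KO 1 and inside it in KO 2. Kctd12 was at 12.5, 7.71 and 5.02 CPM in WT, 93.1 CPM in KO 1 and 10.5 CPM in KO 2, and 64.2% of its exon length is shared with another gene. Plcb2 was at 2.32, 2.75 and 4.10 CPM in WT, 16.4 CPM in KO 1 and 3.69 CPM in KO 2. Neither of these 2 passed the test in the 5 libraries (edgeR adjusted p = 0.0544 for Kctd12 and 0.202 for Plcb2). In AhCre, 44 of 50 tested tuft cell genes were called higher (3.62% of all genes tested there were) and 0 lower (2.82%), with a median log2 fold change of 2.28.

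Part of the type 2 response genes rose beside the tuft cell genes. Of 20 tested, 8 were called higher and 0 lower, beside 1.64% and 0.256% of all genes tested, with a median log2 fold change of 2.59 and median distances of 3.00 in KO 1 and 1.91 in KO 2. This list contains Pla2g4c. The number called was 1 without WT 1, 1 without WT 2, 5 without KO 1 and 13 without KO 2. Sprr2a3, a small proline-rich epithelial protein gene, was at 66.6, 17.2 and 56.4 CPM in WT and at 1595 and 250.3 CPM in KO 1 and KO 2 (4.30). Gsdmc4, a gasdermin gene, was at 19.6, 28.2 and 67.3 CPM in WT and at 443 and 268 CPM in KO (3.21). Both genes were above every WT library in both KO libraries, and both have near-identical neighbours, so reads may be split among copies. Il33, the epithelial alarmin, differed in that KO 2 was the higher of the 2 KO libraries: 11.6, 15.2 and 21.1 CPM in WT, 86.3 CPM in KO 1 and 154 CPM in KO 2 (2.91, SE 0.46, edgeR adjusted p = 0.00429). In AhCre its log2 fold change was 0.05. Retnlb, a goblet cell product induced by interleukin 13, was at 0.580, 0 and 8.06 CPM in WT and 78.0 and 14.4 CPM in KO, and it did not pass (edgeR adjusted p = 0.056). The hydrogen peroxide producing oxidase Duox2 rose by 3.81 and its maturation factor Duoxa2 by 4.10 on the log2 scale, the latter with 42.8% of its exon length shared with Duoxa1.

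**Figure D3:**
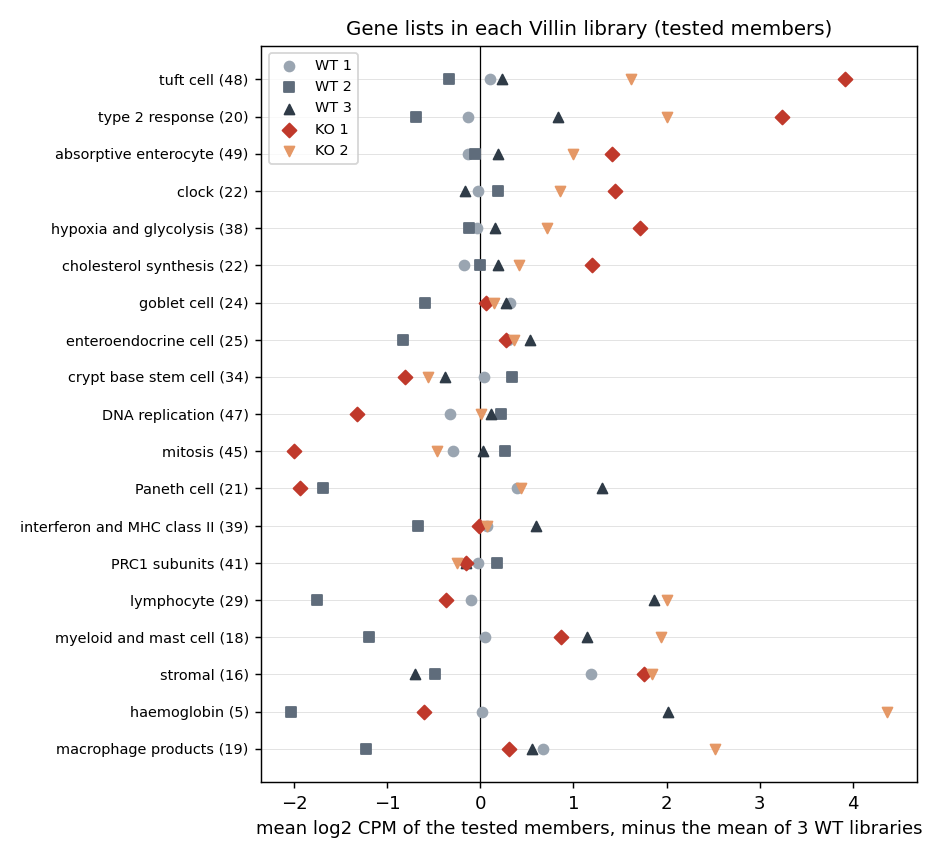
Mean log2 CPM of the tested members of each gene list in every Villin library (x axis, minus the mean of the 3 WT libraries), with 1 symbol per library and the number of tested members in brackets. Tuft cell genes lie right of all WT libraries in both KO libraries, mitosis genes lie lowest in KO 1, Paneth cell genes lie low in KO 1 and WT 2, and haemoglobin and macrophage genes lie highest in KO 2, with WT 3 also high for haemoglobin.

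Some absorptive enterocyte genes rose, sugar carriers among them. Of 49 tested, 5 were called higher and 0 lower (1.64% and 0.256% of all genes tested), 30 were higher at an unadjusted p under 0.05, and 11 were in the class higher in both. KO 1 was above every WT library for 42 of the 49 and KO 2 for 44, beside 34.1% and 29.9% of all genes tested. The median log2 fold change was 1.23, with median distances of 1.38 in KO 1 and 1.04 in KO 2. The count of calls depended on the tool and the libraries: DESeq2 called 20 and limma-voom 3, and 0 were called without WT 1, 0 without WT 2, 3 without WT 3, 1 without KO 1 and 13 without KO 2. Slc2a5, the fructose carrier GLUT5, was at 130.2, 171 and 115 CPM in WT and at 1634 and 713 CPM in KO 1 and KO 2 (3.08, SE 0.49, edgeR adjusted p = 0.00429). Slc5a1, the sodium-glucose carrier SGLT1, was at 901, 1212 and 1616 CPM in WT and at 9615 and 5252 CPM in KO (2.58). Slc2a2, the basolateral carrier GLUT2, was at 178, 199 and 171 CPM in WT and at 1039 and 529 CPM in KO (2.10). For each of these 3 sugar carriers both KO libraries were above all WT libraries, and KO 1 was the higher. The peptidase gene Ace rose by 1.94 and the peptide carrier Slc15a1 by 1.99 on the log2 scale. Alpi, the brush border alkaline phosphatase, was at 520, 554 and 634 CPM in WT and at 2718 and 1165 CPM in KO, and did not pass (edgeR adjusted p = 0.0749).

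In AhCre 3 of the same 49 genes were called higher and 11 lower, beside 3.62% and 2.82% of all genes tested there, with a median of -0.27. A test of the difference between the models over all 9 libraries called 11 genes higher (0.0677% of 16250 tested) and 1 lower (0.00615%) in Villin than in AhCre, with 1027 and 1552 at an unadjusted p under 0.05. Slc2a5 and Slc2a2 were among the 11. The AhCre change was -0.71 for Slc2a5 and -1.53 for Slc2a2, and the differences were 3.67 and 3.51 (edgeR adjusted p = 0.0346 for both). Named because they complete the 11, and chosen after their values were seen, were another sugar carrier, Slc2a7, the glucose-6-phosphate carrier Slc37a4, the folate carrier Slc46a1, and Npl, Bbox1 and Dnah2. Npl, the lyase that splits sialic acid, was at 17.8, 15.6 and 28.3 CPM in WT and at 171 and 116 CPM in KO (2.80), against -1.06 in AhCre. The remaining 3 were the clock genes Bhlhe40 and Hlf and the collagen gene Col1a1. The 1 gene lower was Akr1b8, an aldo-keto reductase gene, at -1.76 in Villin and 3.11 in AhCre.

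Of 22 tested clock genes, 6 repressors and output genes rose and Arntl fell, beside 1.64% and 0.256% of all genes tested. The median log2 fold change was 1.36, and the median distances were 1.69 in KO 1 and 1.30 in KO 2. Both KO libraries were beyond the WT range upward for 10 genes and downward for 1 (2.05% and 2.52% of all genes tested), and 0 of the 22 were in a class of 1 KO library. Ciart, a repressor within the clock, was at 1.31, 1.27 and 0.760 CPM in WT and at 32.8 and 21.5 CPM in KO 1 and KO 2 (4.58, SE 0.56, edgeR adjusted p = 0.00136). Hlf was at 0.290, 1.06 and 0.456 CPM in WT and at 18.9 and 10.4 CPM in KO (4.51). Dbp was at 1.45, 1.80 and 0.608 CPM in WT and at 17.1 and 4.65 CPM in KO (3.04). Both PAR bZIP genes were above every WT library in both KO libraries. Per1, a core repressor, was at 3.19, 3.27 and 5.32 CPM in WT and at 32.1 and 19.4 CPM in KO (2.71). Bhlhe40, another E-box repressor, stood at 27.7, 43.9 and 34.0 CPM in WT and 219 and 125 CPM in KO (2.29), and Usp2, a deubiquitinase with a daily rhythm, rose by 2.21. Arntl moved the other way, at 15.7, 40.8 and 35.6 CPM in WT and 5.10 and 7.52 CPM in KO (-2.27, SE 0.55, edgeR adjusted p = 0.044). Neither KO library overlapped WT. Over the 22 genes 16 log2 fold changes were positive and 6 negative. Members that were higher without passing included Tef at 2.14 (adjusted p = 0.0507), Nr1d2 at 1.70 (0.0551), Per2 at 1.85 (0.0592), Per3 at 1.73 (0.092) and Nr1d1 at 1.42 (0.123), all by edgeR. Clock and Npas2 were at -0.46 and -0.28. Csnk1e, Rora and Nfil3 were also negative, at -1.17, -1.91 and -0.41 with KO 1 as the lone KO library. With KO 2 as the lone one they were at -1.36, -0.75 and -1.29. The number called higher was 1 without WT 1, 0 without WT 2, 2 without KO 1 and 11 without KO 2, and Arntl was called lower only without KO 2 among the fits with 1 library left out. In AhCre 0 of 22 were called higher (edgeR, also 0 at an unadjusted p under 0.05) and 3 lower, beside 3.62% and 2.82% of all genes tested there, with a median of -0.29. The difference between the models was 5.46 for Hlf (adjusted p = 0.0481) and 3.11 for Bhlhe40 (adjusted p = 0.0406), both by edgeR.

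Promoters of clock genes are shown because the E-box CACGTG is both the site of BMAL1 with CLOCK and a site of MGA with MAX. It was searched as CACGTG, which reads the same on both strands, in the 250 bases before each RefSeq start (GRCm38.p6). Of 13673 tested genes 9823 had a promoter in the table. The first 2 below rose and hold the motif, in capitals, and the last fell and has no match in this window. They are examples: the rising genes Hlf, Dbp and Usp2 and the second start of Per1 had no match, while Cry1 and Tef, which did not pass, had one or more.
Ciart, chr3:95882229-95882478, minus strand: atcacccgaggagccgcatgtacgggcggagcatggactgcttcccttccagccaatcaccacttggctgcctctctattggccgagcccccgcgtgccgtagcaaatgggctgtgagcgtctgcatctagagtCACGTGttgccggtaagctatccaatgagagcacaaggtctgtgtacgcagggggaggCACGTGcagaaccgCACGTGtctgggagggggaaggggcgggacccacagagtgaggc
Per1, first start, chr11:69098699-69098948, plus strand: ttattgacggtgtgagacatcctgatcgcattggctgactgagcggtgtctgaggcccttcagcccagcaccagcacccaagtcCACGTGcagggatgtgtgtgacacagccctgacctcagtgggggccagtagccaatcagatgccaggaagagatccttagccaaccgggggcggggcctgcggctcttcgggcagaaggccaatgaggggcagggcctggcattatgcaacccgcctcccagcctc
Arntl, first start, chr7:113207215-113207464, plus strand: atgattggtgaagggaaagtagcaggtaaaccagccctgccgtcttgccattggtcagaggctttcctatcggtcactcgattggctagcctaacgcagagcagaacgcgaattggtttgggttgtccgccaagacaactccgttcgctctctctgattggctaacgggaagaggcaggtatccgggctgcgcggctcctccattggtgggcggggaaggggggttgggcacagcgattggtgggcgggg
The 3 E-boxes of Ciart begin 116, 58 and 44 bases before its start and that of Per1 166 bases before. Of 17 tested clock genes with a promoter 4 held CACGTG (23.5%), beside 9.77% of all tested genes and 6.02% of all 32851 RefSeq starts. Of the genes called higher 19 of 181 held it (10.5%), and of the genes higher in both KO libraries 12.1%. The E2F-type motif TTCCCGCC, searched on both strands, was in 4.97% of genes called higher and 4.08% of all tested genes (1.86% of all starts). These shares describe letters in a window and are not binding sites.

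**Figure D4:**
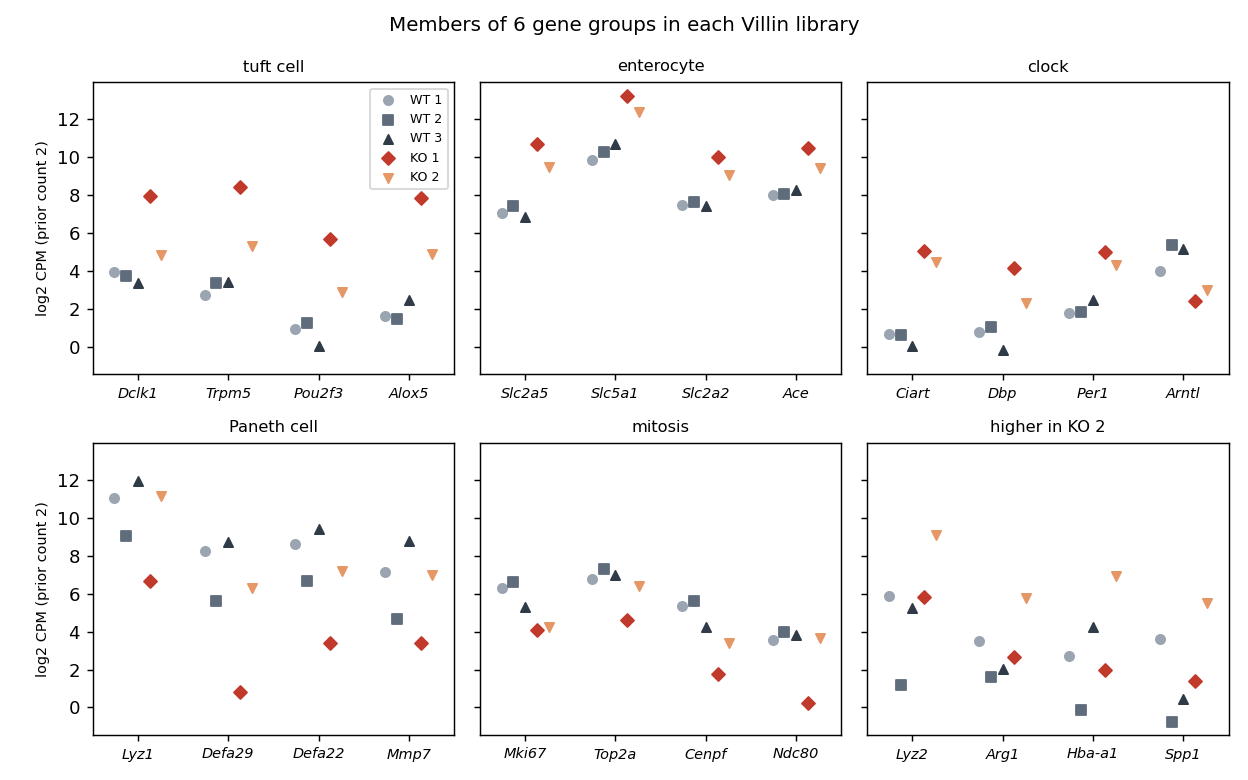
Log2 CPM (y axis, prior count 2) of 4 members each of 6 gene groups (x axis) in the 5 Villin libraries, 1 symbol per library. Both KO libraries are above all WT libraries for the tuft, enterocyte and rising clock genes and below them for Arntl and Mki67, while Lyz1 and Ndc80 are low in KO 1 only and Lyz2 and Arg1 are high in KO 2 only.

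Falls shared by both KO libraries were few among coding genes. Of the 35 genes called lower 11 were protein coding (31.4%), against 97.3% of genes called higher and 86.6% of genes tested. Among the 344 genes lower in both KO libraries 34% were coding. The median log2 fold change was -1.09 over other noncoding genes, -0.62 over pseudogenes and 0.08 over coding genes. Fewer genes had a count in KO 1 and KO 2, 22972 and 22058, than in the WT libraries, 23427 to 29750, and the part of this in the falls was not tested. Aqp8, a water channel gene, was at 62.0, 29.0 and 8.66 CPM in WT and at 0.182 and 1.09 CPM in KO 1 and KO 2 (-5.58). Its WT libraries themselves spanned a wide range. Slc34a2, a sodium-phosphate carrier gene, was at 120, 123 and 201 CPM in WT and at 23.3 and 16.3 CPM in KO (-2.90, SE 0.50, edgeR adjusted p = 0.00544). Nkx6-3, a homeobox gene, had 4, 28 and 15 counts in WT and 0 in both KO libraries, at least 8.74-fold lower against a floor of 3 counts over the group. Ttc6 had 11, 21 and 12 counts in WT and 0 in both KO libraries, at least 8.19-fold lower on the same floor. Both fell, on few counts. The imprinted noncoding RNA Kcnq1ot1 was at 47.4, 86.4 and 23.4 CPM in WT and at 7.47 and 9.98 CPM in KO (-2.58). Gt(ROSA)26Sor, a transcript of the Rosa26 locus, was at 60.8, 43.3 and 85.7 CPM in WT and at 17.5 and 14.8 CPM in KO (-1.97). Other named falls were Zfp704 (-2.59, with 16.6% of its exon length shared), Yeats2 (-2.29), the integrin gene Itga2 (-2.11) and Mki67 (-2.02).

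As a set, dividing-cell genes lay lower in KO 1 than in KO 2. Of 45 tested mitosis genes 0 were called higher and 1 lower, beside 1.64% and 0.256% of all genes tested. At an unadjusted p under 0.05, 16 were lower, and 4 were called lower by DESeq2 and 0 by limma-voom. The median log2 fold change was -1.03, with a median distance of -1.98 in KO 1 and -0.42 in KO 2, and 16 of the 45 were lower in KO 1 only (3.21% of all genes tested). The gene that passed was Mki67, the proliferation marker Ki-67, at 79.4, 97.3 and 38.8 CPM in WT and 16.9 and 18.3 CPM in KO, nearly equal in both (edgeR adjusted p = 0.0486). Top2a, the topoisomerase of dividing cells, was at 108, 157 and 126 CPM in WT, 23.9 CPM in KO 1 and 83.7 CPM in KO 2. Ndc80, a kinetochore gene, was at 11.5, 15.6 and 13.8 CPM in WT, 0.911 CPM in KO 1 and 12.3 CPM in KO 2. With KO 1 as the lone KO library 21 mitosis genes were called lower and with KO 2 as the lone one 0, and 0 were called without WT 1 or without WT 2 and 4 without WT 3. Of 47 tested DNA replication genes edgeR called 0 in either direction, with 6 lower at an unadjusted p under 0.05, 1 lower by DESeq2 and 0 by limma-voom. Their median distance was -1.40 in KO 1 and 0.05 in KO 2. KO 1 was below every WT library for 39 of the 47 and KO 2 for 9. With KO 1 as the lone KO library 9 were called lower.

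Stem cell genes of the crypt base lay lower in KO 1 than in KO 2, with median distances of -0.96 and -0.48. Of 34 tested edgeR called 0, with 1 higher and 10 lower at an unadjusted p under 0.05, 2 lower by DESeq2 and 0 by limma-voom, and 5 lower with KO 1 as the lone KO library. Lgr5, the crypt base stem cell receptor, was at 12.5, 11.6 and 8.21 CPM in WT and 4.01 and 4.92 CPM in KO 1 and KO 2, a log2 fold change of -1.26 that did not pass (edgeR adjusted p = 0.265). Ascl2, a stem cell transcription factor, was at 33.1, 24.5 and 11.6 CPM in WT, 3.64 CPM in KO 1 and 16.8 CPM in KO 2.

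Many Paneth cell genes were low in KO 1 only. Of 21 tested, 10 were in the class lower in KO 1 only (3.21% of all genes tested), and the median distance was -2.06 in KO 1 and 0.48 in KO 2. In the 5 libraries 1 was called higher and 0 lower, beside 1.64% and 0.256% of all genes tested. With KO 1 as the lone KO library the median log2 fold change was -3.03, against a median of 0.05 with KO 2 alone. Lyz1, the Paneth cell lysozyme, was at 2080, 519 and 3941 CPM in WT, 103 CPM in KO 1 and 2229 CPM in KO 2. Defa29, a defensin gene with near-identical copies, was at 308, 48.7 and 414 CPM in WT, 1.46 CPM in KO 1 and 76.9 CPM in KO 2. Mmp7, the metalloprotease that activates defensins, was at 143, 25.4 and 434 CPM in WT, 10.4 CPM in KO 1 and 125 CPM in KO 2. WT 2 was the lowest of the WT libraries for all 3. The called gene was Pnliprp2, a lipase gene, at 29.5, 12.4 and 31.5 CPM in WT and 494 and 87.5 CPM in KO (3.58). It lost its call without WT 1, without WT 2 and with KO 2 as the lone KO library, where its log2 fold change was 1.87 (edgeR adjusted p = 0.0984). In AhCre 15 of 22 tested Paneth cell genes were called higher and 0 lower, beside 3.62% and 2.82% of all genes tested there.

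Of 39 tested interferon and MHC class II genes 4 were lower and 4 higher in KO 1 only. Of 13 tested distal intestine genes 2 were lower and 1 higher in KO 1 only. Those classes held 3.21% and 1.29% of all genes tested. Of the 39, edgeR called 1 higher and 0 lower, with 11 higher and 8 lower at an unadjusted p under 0.05. KO 1 was above every WT library for 19 and below for 9, beside 34.1% and 31.4% of all genes tested. Usp18, an interferon gene, was 3.08 higher with KO 1 as the lone KO library and 1.30 higher with KO 2. Class II genes went the other way. H2-Aa, a class II histocompatibility chain, was at 993, 204 and 778 CPM in WT, 14.2 CPM in KO 1 and 218 CPM in KO 2. H2-Ab1, its partner chain, was at 1336, 422 and 1421 CPM in WT, 79.8 CPM in KO 1 and 545 CPM in KO 2. Fabp6, the ileal bile acid binding protein, was at 2393, 406 and 1867 CPM in WT, 41.0 CPM in KO 1 and 844 CPM in KO 2. For each of these 3 genes KO 1 was far below WT 2, the lowest WT library, and KO 2 lay inside the WT range. Cholesterol synthesis genes had median distances of 1.21 in KO 1 and 0.34 in KO 2. edgeR called 0 of these 22, with 8 higher at an unadjusted p under 0.05, while DESeq2 and limma-voom called 0, and 6 were called higher with KO 1 as the lone KO library.

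Genes high in KO 2 only included those of blood and macrophages. All 5 tested haemoglobin genes and 10 of 19 tested macrophage product genes were in the class higher in KO 2 only, which held 0.417% of all genes tested. Both lists were written after the values were seen and describe the class only. In the 5 libraries edgeR called 0 genes of either list in either direction. At an unadjusted p under 0.05, 4 haemoglobin genes were higher and 0 lower, and 10 macrophage product genes were higher and 1 lower. Hba-a1, an alpha globin gene with a near-identical copy, was at 6.38, 0.634 and 18.8 CPM in WT, 3.64 CPM in KO 1 and 120.3 CPM in KO 2. Hbb-bs, a beta globin gene, was at 17.8, 2.43 and 174 CPM in WT, 12.4 CPM in KO 1 and 512 CPM in KO 2. Globins thus varied widely within WT too. Lyz2, the macrophage lysozyme, was at 58.0, 2.01 and 38 CPM in WT, 57.2 CPM in KO 1 and 545 CPM in KO 2. Arg1, arginase of macrophages, was at 10.9, 2.75 and 3.8 CPM in WT, 6.01 CPM in KO 1 and 54.0 CPM in KO 2. Adgre1, which encodes the macrophage marker F4/80, was at 0.435, 0.317 and 1.06 CPM in WT, 0.911 CPM in KO 1 and 9.03 CPM in KO 2. Over the list of macrophage products the summed CPM was 209, 54.0 and 191 in WT, 187 in KO 1 and 1184 in KO 2. The mast cell marker Kit, which was called higher, was at 3.92, 10.2 and 10.2 CPM in WT, 65.0 CPM in KO 1 and 17.8 CPM in KO 2. Of 18 tested myeloid and mast cell genes 1 was called higher and 0 lower, beside 1.64% and 0.256% of all genes tested. The count was 0 without WT 1 or without WT 2, 4 without WT 3 and 7 with KO 2 as the lone KO library. The part of such cells in other differences of KO 2 was not tested. The class lower in KO 2 only included Pcsk5, a proprotein convertase gene, at 49.5, 52.7 and 40.4 CPM in WT, 49.5 CPM in KO 1 and 13.1 CPM in KO 2. In opposite directions moved Acacb, an acetyl-CoA carboxylase gene, at 3.48, 6.34 and 2.43 CPM in WT, 16 CPM in KO 1 and 0.684 CPM in KO 2. Bcl2l15, a BCL2 family gene with 21% of its exon length shared, did the reverse, at 30.8, 19.5 and 30.7 CPM in WT, 3.83 CPM in KO 1 and 62.6 CPM in KO 2.

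Some stromal genes were higher in both KO libraries. Of 30 listed genes 16 were tested, 3 called higher and 0 lower, beside 1.64% and 0.256% of all genes tested. Their median distances were 2.33 in KO 1 and 1.91 in KO 2. Without WT 2, 0 were called, and without KO 2, 7. Col1a1, the main fibrillar collagen gene, was at 2.47, 0.739 and 0.304 CPM in WT and 12.6 and 14.2 CPM in KO (3.51), against -1.97 in AhCre, a difference of 5.38 (edgeR adjusted p = 0.0346). Dcn, the fibroblast proteoglycan decorin, was at 108, 11.4 and 5.32 CPM in WT and 82.5 and 73.4 CPM in KO, so that WT 1 lay above both KO libraries. The summed CPM of the list was 255, 78.6 and 94.2 in WT and 516 and 400.2 in KO. The lymphocyte list had 0 of 29 called by edgeR, with 1 higher at an unadjusted p under 0.05, DESeq2 and limma-voom called 0, and the list had median distances of -0.71 in KO 1 and 2.09 in KO 2. Genes of fetal and injured epithelium had 5 of 23 called higher and 1 lower, beside 1.64% and 0.256% of all genes tested. The number called higher was 0 without WT 1 or without WT 2 and 3 without WT 3.

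No listed PRC1 gene and no tested germline gene passed the test. Of 41 tested PRC1 genes other than Pcgf6 edgeR called 0, with 2 higher and 4 lower at an unadjusted p under 0.05, 1 lower by DESeq2 and 0 by limma-voom. Mga, the DNA binding partner of PRC1.6, was at 23.2, 32.1 and 15.7 CPM in WT and 19.7 and 23.0 CPM in KO. E2f6 was at 3.34, 3.91 and 5.02 CPM in WT and 4.19 and 2.32 CPM in KO. L3mbtl2, the chromatin reader of the complex, was at 8.85, 21.1 and 11.7 CPM in WT and 4.37 and 13.8 CPM in KO. For these 3, KO and WT overlapped. Pcgf2, a subunit of canonical PRC1, was at 7.69, 6.65 and 5.93 CPM in WT and 2.37 and 2.74 CPM in KO, below every WT library in both without passing (edgeR adjusted p = 0.269). Of 69 germline genes 14 had enough counts to be tested and edgeR called 0, with 2 higher at an unadjusted p under 0.05, and DESeq2 and limma-voom called 0. Tdrkh, a gene of the piRNA pathway, was at 0.145, 1.37 and 0.152 CPM in WT and 4.74 and 3.83 CPM in KO, with a log2 fold change of 2.81 that did not pass (edgeR adjusted p = 0.111). Goblet cell genes (24 tested) and enteroendocrine genes (25 tested) had 0 calls by edgeR, with 3 higher and 1 lower in each at an unadjusted p under 0.05. For both lists the medians were near 0, at -0.06 and 0.18. DESeq2 called 1 goblet cell gene higher and no enteroendocrine gene, and limma-voom called 0 in either list.

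The AhCre libraries share no sample with the Villin ones and so give separate values for genes of each class. Of 263 genes higher in both Villin KO libraries that were tested in AhCre, 88 were called higher there (33.5%) and 29 lower (11%), beside 3.68% and 2.82% of the 13333 genes tested in both models. For the genes higher in KO 1 only, 31 of 169 were called higher in AhCre (18.3%) and 4 lower. The class higher in KO 2 only had 2 of 52 called higher (3.85%) and 12 lower (23.1%), with a median of -0.40. Genes lower in both KO libraries had 3 of 288 called higher (1.04%) and 7 lower (2.43%), shares near or below the background. Of the genes called higher in the Villin fit 115 of 219 were called higher in AhCre (52.5%) and 18 lower (8.22%). Among those called lower, 0 of 27 were called higher and 2 lower by edgeR. Whether classes differ from each other in AhCre was not tested.

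**Figure D5:**
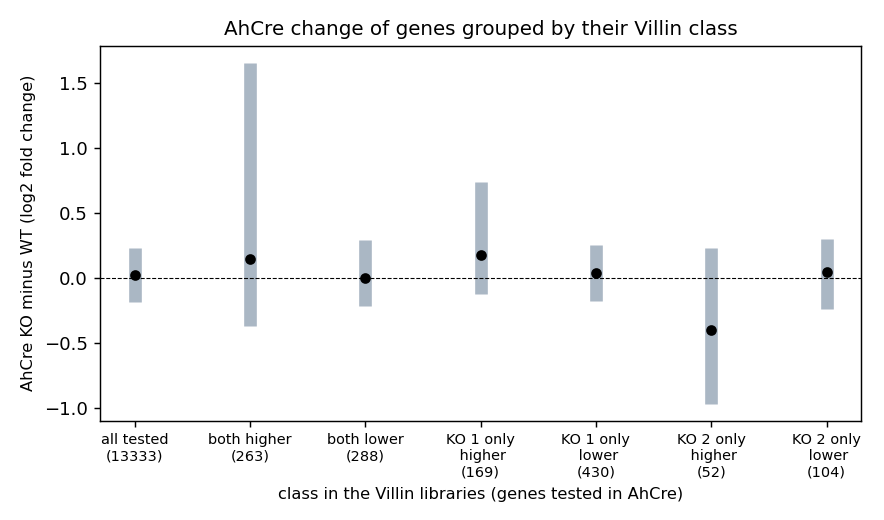
AhCre KO minus WT log2 fold change (y axis) of genes grouped by their class in the Villin libraries (x axis, number of genes tested in AhCre in brackets); points are medians and bars run from the lower to the upper quartile. The class higher in both KO libraries has the highest upper quartile (1.65) with a median of 0.15, beside a median of 0.17 for the class higher in KO 1 only, and the class higher in KO 2 only has a median of -0.40 with a bar that crosses 0.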

How the data were processed

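The authors deposited raw read counts per gene for each library, not normalized and with no share of reads outside genes. Per the submitters' processing notes, STAR 2.7, featureCounts, DESeq2 1.20 and the mm10 (GRCm38) build were named. Whether counting used strand is not given in the sources used here, and Smart-seq2 does not keep it, so overlapping genes cannot be told apart. The deposited counts of the 5 Villin libraries were fitted alone using edgeR 4.0.16 under R 4.3.3. filterByExpr by genotype kept 13673 of 55341 genes. They were scaled by TMM and tested by the quasi-likelihood test with genotype as the only term and Benjamini-Hochberg adjustment over all genes tested (threshold 0.05, residual degrees of freedom 3). CPM use TMM library sizes, and 3 counts correspond to 0.317 to 0.547 CPM. Classes of both or 1 KO library use log2 CPM with a prior count of 2 and a distance of 1, with no test. AhCre was fitted alone (16257 genes), and the difference of the KO effects in all 9 libraries (16250 genes). Exon overlaps and coordinates are from GENCODE M21 on GRCm38. Scripts were tested on simulated data.

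Named genes are Pcgf6; the 12 largest rises and falls among calls without overlap and with a mean of at least 1 CPM; up to 4 called members by p and the 3 most abundant of each list; and the 8 genes farthest from the WT range in each class of 1 KO library or of opposite directions with a mean of at least 5 CPM. Symbols of unnamed gene models were passed over. Genes outside this rule (among them Dclk1, Pou2f3, Adgre1, Kctd12, Hmx2, Plcb2, Il25, Retnlb, Alpi, Ascl2, Lgr5, Tdrkh, Pcgf2, Mga, E2f6, L3mbtl2, Fabp6, Dcn, Vil1 and the clock genes that did not pass, where the rule does not name them) were chosen after their values were seen. The members and lists were chosen with earlier results of these data known. Alternatives were DESeq2 1.42.0 and its size factors, limma 3.58.1 voom with sample weights, other filters, a prior count of 0.5, a distance of 2, a replicate block, all 9 libraries and each library left out.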

Additional observations from a re-analysis of the deposited data

Results flagged for a closer look

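The KO effect of 12 genes differed between the Villin and the AhCre libraries by a test of the difference itself in all 9 libraries (edgeR quasi-likelihood test, Benjamini-Hochberg adjusted), and 5 of them are genes named by the rule. Slc2a5 had a log2 fold change of 3.08 in Villin and -0.71 in AhCre, a difference of 3.67 (adjusted p = 0.0346). Slc2a2 was at 2.10 and -1.53, a difference of 3.51 (adjusted p = 0.0346). The clock output gene Hlf was at 4.51 and -1.05, a difference of 5.46 (adjusted p = 0.0481), and Bhlhe40 at 2.29 and -0.94, a difference of 3.11 (adjusted p = 0.0406). Col1a1 was at 3.51 and -1.97, a difference of 5.38 (adjusted p = 0.0346). The 2 models differ in the Cre driver and the inducer, and their libraries also differ in depth. Total counts were 9263993 to 12377921 in AhCre and 6455098 to 8339149 in Villin. Genes with a count numbered 33791 to 38835 in AhCre and 22058 to 29750 in Villin. The time of day of collection is not given, and markers of other cells varied among libraries of 1 genotype. Driver, inducer, depth and any difference in collection time or cell make-up cannot be told apart.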

How the results depend on the processing

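A change of direction was counted only where the gene passed in all 5 libraries or in the alternative that turned its sign. By this rule 1 named gene changed direction: Bcl2l15, at 0.31 in all 5 libraries, -2.80 without KO 2 and 1.24 without KO 1. Other named genes differed in sign between these last fits without meeting the rule. Among them were Hba-a1 (-1.22 without KO 2 and 3.83 without KO 1) and Acacb (1.97 and -2.53). Of 53 called genes 28 kept their call in every alternative that left no library out, the replicate block included. Genes higher (224) numbered 545 with no filter on low counts, 376 by DESeq2, 114 by limma-voom and 541 in the fit of all 9 libraries, and 1 to 682 with 1 library left out. Genes lower (35) numbered 115, 134, 4 and 468 under the same 4 settings and 0 to 315 with 1 library left out. Higher genes made up 86.5% of calls, 73.7% by DESeq2, 96.6% by limma-voom and 53.6% with all 9 libraries, where the median of all genes was -0.18 (-0.30 with no filter). Pcgf6 passed in the fit of all 9 libraries (-1.99, edgeR adjusted p = 0.022) and lay between -2.0 and -1.68 with 1 library left out. Members called higher with 1 library left out ran from 0 to 44 for tuft cell (22 by limma-voom), 1 to 13 for type 2 (14 with no filter), 0 to 13 for enterocyte, 0 to 6 for fetal and injury (2 by limma-voom) and 0 to 11 for clock genes. Enterocyte calls were 3 with DESeq2 size factors, 14 with no filter, 20 by DESeq2, 3 by limma-voom and 22 with all 9 libraries; clock calls were 10 with no filter, 10 by DESeq2 and 12 with all 9 libraries. At a distance of 2 the classes held 34 genes higher and 27 lower in both KO libraries, 16 higher and 79 lower in KO 1 only, and 11 higher and 10 lower in KO 2 only. With 1 WT library left out they held 429 to 533, 443 to 687, 128 to 154, 332 to 387, 35 to 147 and 88 to 103 in the same order. Leaving out a WT library cannot widen the WT range, so the 2 classes of both KO libraries could not shrink. Every left-out fit has 1 library fewer, and the cause of the other shifts was not tested.

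Whether replicate numbers pair the libraries could not be settled: deviations correlated at 0.0847 for number 1 and at -0.222 for number 2. With 2 KO libraries the deviations of KO 2 mirror those of KO 1, so both values rest on the same contrast. With a replicate block 256 genes were higher and 82 lower (75.7% of calls higher), and 3 fetal and injury genes were called higher. WT 3 has no KO library of its number, so the KO effect in that fit rests on the other libraries. Depth limits statements on genes near the floor of 3 counts.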

Other observations

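A list of hypoxia and glycolysis genes, written after the values were seen, describes these libraries only. Of 38 tested genes 7 were in the class higher in both KO libraries (2.05% of all genes tested), KO 1 was above every WT library for 35 and KO 2 for 24, and 9 were called higher and 0 lower (adjusted p under 0.05 by edgeR), beside 1.64% and 0.256% of all genes tested, with a median log2 fold change of 1.17. KO 1 was the further from WT, with median distances of 1.5 in KO 1 and 0.68 in KO 2. Pkm, pyruvate kinase, was at 469, 584 and 499.7 CPM in WT 1 to WT 3 and at 2041 and 1572 CPM in KO 1 and KO 2, a rise of 1.80 on the log2 scale. Both KO libraries were above all WT libraries. Larger rises were those of Pygl, liver glycogen phosphorylase (4.27), the lactate carrier gene Slc16a3 (3.50), Egln3, an oxygen sensing hydroxylase (3.22), and Bnip3, a mitophagy receptor (3.01). In AhCre 4 of 40 tested members were called higher and 1 lower, beside 3.62% and 2.82% of all genes tested there, with a median of -0.04.

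The letters AGGTCA, the core site of nuclear receptors such as REV-ERB and ROR and a motif added after the values were seen, were in 15 of 40 enterocyte gene promoters (37.5%), beside 13.4% of tested genes and 14% of all RefSeq starts. It was not particular to that list: the share was 45.5% for proximal intestine, 35.7% for antimicrobial and 33.3% for epithelium genes, and 7.69% for tuft cell genes. Of genes called higher 17.7% held it, and of genes higher in both KO libraries 17.2%. These shares describe letters in the 250 bases before the start, on both strands, and a link to the clock was not tested.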
